A study of Homo sapiens with 24 samples.

Results

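Cytosolic ribosomal protein genes encode the proteins that build the large and the small subunit of the cytoplasmic ribosome together with ribosomal RNA. They were taken by symbol alone. A protein-coding gene of the count table belonged to the set when its GENCODE 29 symbol was RPL or RPS plus a number, with or without a trailing A, X or Y, or was RPLP0, RPLP1, RPLP2 or RPSA. Paralogs whose symbols end in L or Y and the RPS6K kinases stayed outside. The rule found 77 of 58381 genes, 46 of the large and 31 of the small subunit. All 77 passed the filter on low counts, which left 20820 genes for testing.

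The RNA came from 4 human bladder cancer lines, named T24, 5637, CLS-439 and TCC-SUP. Each was either left untreated or given mitomycin C (MMC), a drug that crosslinks the strands of DNA, at 75 µM. The exposure lasted 1 h and RNA was collected 15 h later. The labels give no other agent, allele or condition for any group. Each of the 8 groups had 3 libraries, numbered 1, 3 and 4, which the design text calls biological replicates.

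A ribosome holds 1 copy of nearly every ribosomal protein, and growing cells spend much of their transcription and translation on these genes. Most of the mRNAs begin with a C followed by a run of pyrimidines, the terminal oligopyrimidine (TOP) motif, through which the mTOR kinase and the RNA-binding protein LARP1 control their translation and stability. Ribosomal proteins that are made but not built into ribosomes are short-lived. Some of them, RPL5 and RPL11 foremost, can instead bind MDM2, the ligase that marks p53 for destruction, so that p53 accumulates.

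The first bases of the transcripts show what the genes share. RefSeq promoters (GRCh38.p14) were matched for 62 of the 77 genes. A TOP start, defined here as C at the first transcribed base and at least 4 pyrimidines directly after it, occurred in 46 of the 62 (74.2%) and in 5.14% of all 27305 genes of the promoter table. Each window below runs from 20 bases before the annotated start to 15 bases from it, 5′ to 3′ on the transcribed strand, with the pyrimidine run of a TOP start in capitals. RPL7A, RPS6, RPL11 and RPL3 are shown because they were called after MMC in 3 lines, RPL10A because its response differed between lines, and RPLP1 and RPLP2 because they were called in no line.
RPL7A, chr9:133348198-133348232, plus strand: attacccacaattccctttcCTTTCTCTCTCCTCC
RPS6, chr9:19380222-19380256, minus strand: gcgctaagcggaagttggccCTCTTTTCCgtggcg
RPL11, chr1:23691786-23691820, plus strand: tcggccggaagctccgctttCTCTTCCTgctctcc
RPL3, chr22:39319609-39319643, minus strand: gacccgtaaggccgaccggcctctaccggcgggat
RPL10A, chr6:35468381-35468415, plus strand: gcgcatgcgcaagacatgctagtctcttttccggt
RPLP1, chr15:69452798-69452832, plus strand: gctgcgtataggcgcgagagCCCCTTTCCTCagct
RPLP2, chr11:809947-809981, plus strand: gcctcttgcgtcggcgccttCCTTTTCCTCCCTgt
RPL7A, RPS6, RPL11, RPLP1 and RPLP2 carry a TOP start at the annotated base. RPL3 and RPL10A do not, although the RPL3 start has a pyrimidine run of 4 bases, just under the 5 that the definition asks for. RPL11 has a second RefSeq start upstream without the motif. The letters CCGGAA, the core of sites bound by ETS factors, lay on either strand of the 300 bases around the start in 56.5% of the 62 genes and in 20.1% of all genes. CTTTCC can be part of a TOP run. On the transcribed strand it lay wholly within 10 bases before to 20 after the start in 30.6% against 1.91%. TATAAA was found in 8.06% against 14.0%. A match is a run of letters and not a measured site.

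Libraries held between 13791428 and 28821665 counted reads, and libraries of the same group differed by a chi-square of at least 4.10 per gene, more than sampling noise in every pair. Levels below are CPM, read counts divided by library size, with the size scaled by TMM, which sets aside the most extreme genes when libraries are put on one scale. The MMC library of replicate 1 lay furthest from the other treated libraries in T24, 5637 and CLS-439. Its chi-square values were 72.5 to 129, 50.4 to 77.1 and 18.2 to 19.9 per gene in these lines. Between replicates 3 and 4 the values were 21.4, 23.0 and 4.84. Mitochondrially encoded reads were 3.21% to 7.40% of the total in T24, 5637 and TCC-SUP and 0.0238% to 0.0283% in CLS-439. How well CLS-439 RNA fits the human reference was not tested. Of 6 epithelial markers checked against the labels, 3 were lower and 2 higher in untreated T24 than in 5637, and 1 was lower and 5 higher in 5637 than in TCC-SUP. The keratin gene KRT8 had a mean of 1832 ± 174, 1299 ± 131, 153 ± 23.1 and 655 ± 44.4 CPM (SD, n = 3) in untreated T24, 5637, TCC-SUP and CLS-439. The urothelial factor gene PPARG had 43.9, 139, 97.2 and 45.0 CPM, whereas the late urothelial markers UPK2, UPK3A and KRT20 did not pass the filter. Of the 3 urothelial markers tested, 2 were lower and 0 higher in untreated T24 than in 5637. In 5637 1 was lower and 1 higher than in TCC-SUP, and in CLS-439 2 were lower and 1 higher than in the other lines. Of 3 basal markers, 2 were lower and 0 higher in T24 than in 5637, and 1 was lower and 2 higher in 5637 than in TCC-SUP. The 5 fibroblast markers were all lower in untreated T24 and 5637 than in TCC-SUP, where the collagen genes COL1A1 and COL1A2 reached 4298 and 4120.4 CPM. In CLS-439 2 were lower and 2 higher than in the mean of the other lines, with COL1A1 at 1702 CPM and COL1A2 at 0.0525 CPM.

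The ribosomal protein genes together took 5.11% ± 0.274 (SD, n = 3) of the reads in untreated T24 and 5.08% ± 0.564 after MMC. In 5637 they took 5.11% ± 0.421 untreated and 4.19% ± 0.579 treated. For TCC-SUP the shares were 3.84% ± 0.109 untreated and 3.64% ± 0.230 treated, and for CLS-439 they were 3.73% ± 0.175 and 3.45% ± 0.154. In 5637 the untreated libraries 1, 3 and 4 gave 5.53%, 5.12% and 4.69% and the treated ones 4.72%, 4.29% and 3.57%, so that the lowest untreated library lay just below the highest treated one. After TMM scaling the summed level went from 56579 ± 5148 to 42073 ± 7110 CPM in 5637, and there the groups did not overlap. T24 libraries overlapped on both scales, and treated replicate 1 had the highest sum of that line, 60599 CPM. By share of reads treated T24 replicate 4 (4.85%) also lay above untreated replicate 4 (4.83%). The TMM-scaled sums of TCC-SUP did not overlap either, at 39806 to 43205 CPM untreated and 32950 to 38549 CPM treated. By share of reads they did, with treated TCC-SUP replicate 3 (3.86%) above untreated replicates 1 (3.84%) and 3 (3.73%). The TMM-scaled sums of CLS-439 overlapped.

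**Figure D1:**
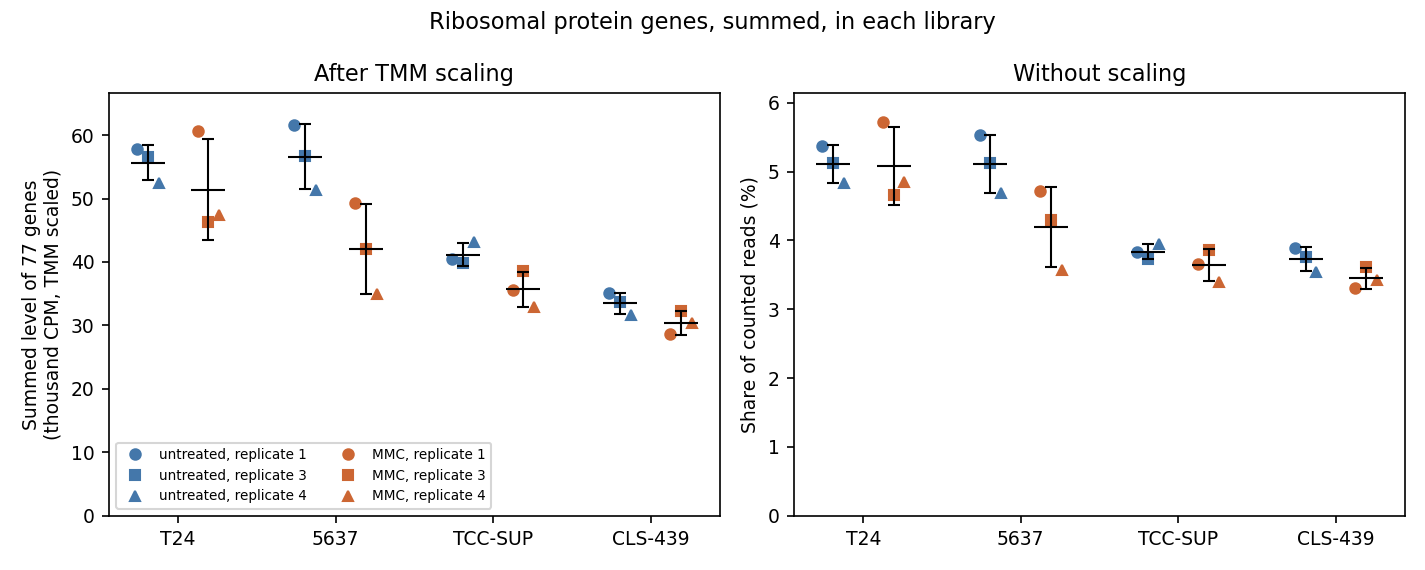
Summed level of the 77 ribosomal protein genes in each of 24 libraries, as TMM-scaled CPM in units of 1000 (left) and as percent of counted reads (right); bars are the mean and SD of 3 libraries. In 5637 the mean went from 56579 to 42073 CPM, and in T24 treated replicate 1 stands above all untreated libraries.

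Line 5637 had the most called genes of the 4 lines. MMC lowered 41 of the 77 genes, 53.2% of them, and raised 0. Of all 20820 genes 13.6% were called lower and 15.9% higher in 5637. The median log2 fold change was -0.40 against 0 for all genes, and 75 of 77 values were negative. Calls here and below are adjusted p values under 0.05 from edgeR's quasi-likelihood test, adjusted over all genes tested. The libraries are bulk and the levels relative, so fewer cells making a transcript and less transcript per cell cannot be told apart.

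**Figure D2:**
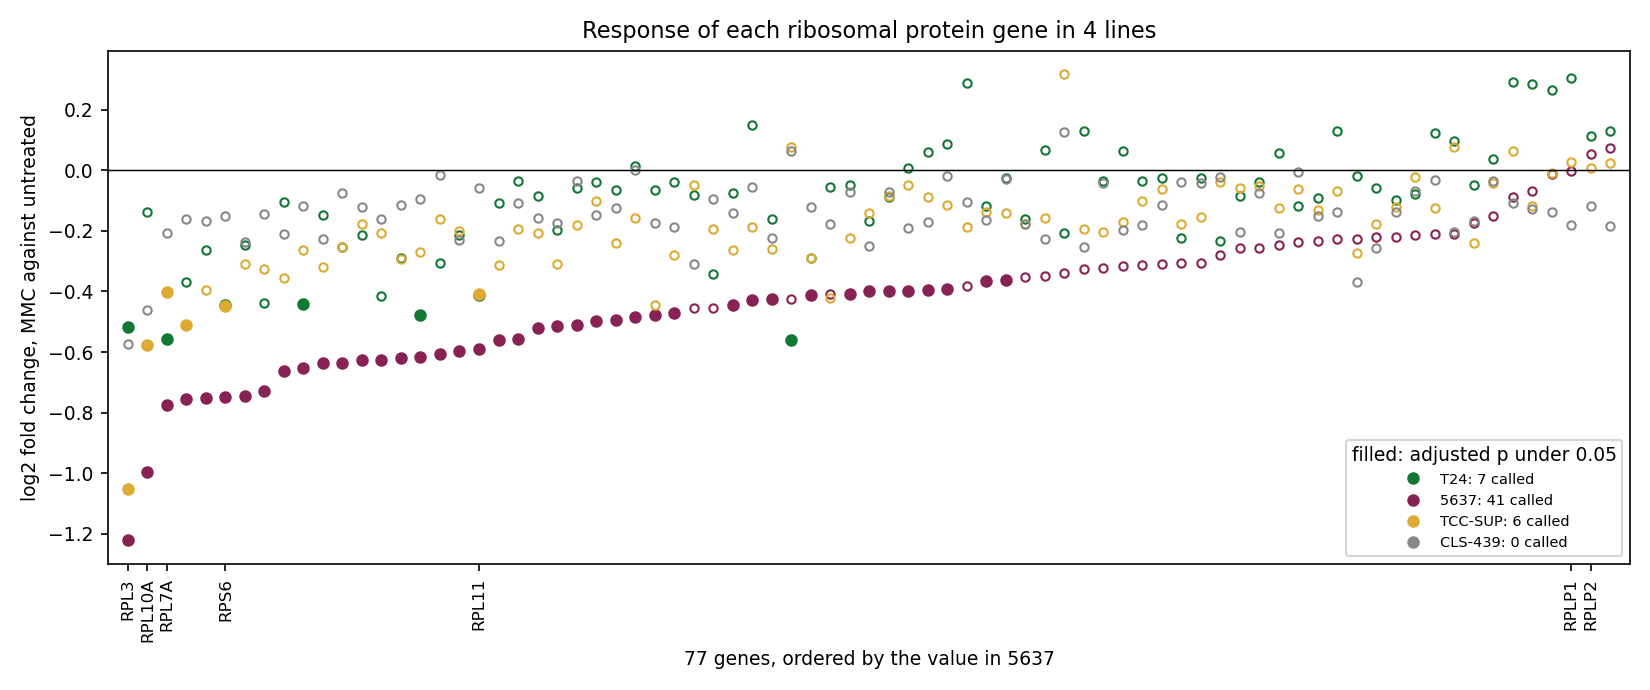
Log2 fold change of MMC against untreated cells for each of the 77 genes, ordered by the value in 5637, with 1 point per line and 7 genes named on the axis; filled points are called at an adjusted p under 0.05. The filled points number 41 for 5637, 7 for T24, 6 for TCC-SUP and 0 for CLS-439, and RPL3 is the lowest point of 5637, TCC-SUP and CLS-439.

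RPL3 (ENSG00000100316, chromosome 22, 39312882 to 39320389) encodes a large-subunit protein that reaches towards the peptidyl transferase centre. In 5637 its level was 1361, 1316 and 1188 CPM in the untreated libraries 1, 3 and 4 and 603, 618 and 437 CPM in the treated ones. All treated libraries lay below all untreated ones, and the log2 fold change stood at -1.22 (SE 0.15, adjusted p = 1.52e-06). RPL10A (ENSG00000198755, chromosome 6, 35468408 to 35470785), a protein of the flexible L1 stalk, gave 529, 500.4 and 452 CPM before and 286, 249 and 209 CPM after MMC. Again no library overlapped, and the log2 fold change was -1.0 (SE 0.14, adjusted p = 7e-06). RPL3 and RPL10A had the lowest values, and the next gene was RPL7A at -0.77. Each gene's own standard error was 0.11 to 0.15, and differences between genes were not tested.

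RPL7A (ENSG00000148303, chromosome 9, 133348214 to 133351426), whose introns hold several snoRNAs, had 1578, 1578 and 1441 CPM in untreated and 1065, 829.5 and 796 CPM in treated 5637 libraries, without overlap (SE 0.11, adjusted p = 1.74e-05). RPS6 (ENSG00000137154, chromosome 9, 19375715 to 19380254), the substrate of the S6 kinases downstream of mTOR, went from 1637, 1512 and 1388 CPM to 1101, 845 and 754 CPM. Its log2 fold change was -0.75 (SE 0.12, adjusted p = 3.04e-05), and the groups were separate. RPL10 and RPS23 also had values between -0.75 and -0.74. RPS23, a protein of the decoding centre, had 849.5, 807 and 672 CPM untreated and 619, 439.8 and 332 CPM treated (SE 0.18, adjusted p = 0.00298). RPL10, a late-joining protein of the large subunit, had 1641, 1507 and 1247 CPM untreated and 1144, 859 and 608 CPM treated (SE 0.19, adjusted p = 0.00345). Genes on the opposite strand cover 52.7% of the exon bases of RPL10, and how strand was handled in counting is not given.

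The 41 called genes ranged down to RPS13 at -0.36 (SE 0.13, adjusted p = 0.0376). Of the large subunit 27 of 46 genes fell and of the small subunit 14 of 31. All 3 treated libraries lay below all 3 untreated ones for 40 members, against 19.8% of all genes, and above them for 0 (20.7% of all genes). Genes at the other end of the order in 5637 did not pass the test. RPS15 had 389.9, 391 and 389 CPM untreated and 418, 449.6 and 364 CPM treated (log2 fold change 0.07, SE 0.19, adjusted p = 0.85), and RPS19 had a log2 fold change of -0.01 (SE 0.14). Counts of called genes in 5637 rested on single libraries: 58 without MMC replicate 1, 22 without untreated replicate 1, 26 without MMC replicate 3 and 20 without MMC replicate 4. Scaled by library totals alone the count was 25, with a median of -0.26 where the median of all genes was 0.13, and fitted without the other lines it was 25.

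In T24 MMC lowered 7 of 77 genes and raised 0, while 13.4% of all genes were called lower and 15.2% higher in T24. The 7 were RPL36A and RPL7A at -0.56, RPL3 at -0.52, RPL6 at -0.48, RPS6 at -0.45, RPL7 at -0.44 and RPL11 at -0.41. RPL6, a large-subunit protein, had 1025, 994 and 1045 CPM untreated and 696, 760.1 and 745 CPM treated (SE 0.10, adjusted p = 0.00103). RPS6 had 723, 688 and 687 CPM untreated and 514, 512 and 514 CPM treated, with no overlap and hardly any spread among treated libraries (SE 0.12, adjusted p = 0.00514). RPL7A had 1286, 1352 and 1253 CPM untreated and 1013, 844 and 787 CPM treated (SE 0.11, adjusted p = 0.000669). RPL36A is weakly counted, with 22.4, 22.3 and 23.5 CPM before and 13, 19.0 and 14.1 CPM after MMC, and shares 8.40% of its exon bases with a readthrough gene on the same strand.

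The median over the 77 genes in T24 was -0.08, with 57 negative values, but scaling by library totals alone turned it to 0.03, with 32 negative values, where the median of all genes was 0.09. On that scale RPLP1, RPS12 and RPS19 were called higher in T24. The treated libraries disagreed: against the untreated mean, the median ratio of the members was 0.21 on the log2 scale in replicate 1 and -0.25 and -0.21 in replicates 3 and 4. Without MMC replicate 1, 3 or 4 the median over the members was -0.24, -0.04 or -0.01, and without untreated replicate 4 it was -0.13. Several genes followed that split. RPS12, a small-subunit protein, had 393, 409.7 and 375 CPM untreated and 613, 391 and 432 CPM treated, and RPS21 had 472, 461 and 447 CPM untreated and 724, 456 and 499 CPM treated. In both, replicate 1 alone was far above the untreated libraries. Without MMC replicate 1 of T24 the test called 15 genes lower, and without MMC replicate 4 it called 3. All treated libraries lay below all untreated ones for 12 members (background 16.6%) and above them for 1, RPL39 (background 18%).

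TCC-SUP gave 6 genes called lower and 0 called higher, where 11.1% of all genes were lower and 9.57% higher in TCC-SUP. RPL3 led again, with 907, 891 and 901 CPM in untreated and 429.6, 503 and 371 CPM in treated libraries. The untreated values were nearly equal and every treated one lay far below them, and the log2 fold change was -1.05 (SE 0.15, adjusted p = 4.66e-05). RPL10A had 437, 430.1 and 469 CPM untreated and 292, 331 and 272 CPM treated, which gave -0.58 on the log2 scale (SE 0.14, adjusted p = 0.00371). Also called were RPS6 at -0.45, RPL11 at -0.41 and RPL7A at -0.40.

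Values were negative for 70 of 77 genes in TCC-SUP and their median was -0.18. Scaled by library totals the median was -0.05, with 50 negative values, where that of all genes was 0.10. For 34 members all treated libraries lay below all untreated ones (background 19.2%), more than the 6 that passed the test, and for 0 they lay above (background 18.5%). The count of called genes fell to 2 without untreated replicate 4 and to 3 without MMC replicate 4. It rose to 12 with the replicate number as a block within lines and to 16 without replicate 1 of all groups.

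CLS-439 had no called member by edgeR, 3 at an unadjusted p under 0.05 and 1, RPL3, by DESeq2. Of all genes 0.322% were called lower and 0.298% higher in CLS-439, 0.62% together. The 3 genes were RPL3, RPL10A and RPL13. RPL3 had 569, 533 and 498 CPM untreated and 397, 342 and 336 CPM treated, which did not overlap (log2 fold change -0.57, SE 0.15, adjusted p = 0.0772). RPL10A had 340.0, 325 and 317 CPM untreated and 232, 242 and 239 CPM treated, again without overlap (-0.46, SE 0.14, adjusted p = 0.16). The median over 77 genes was -0.14, with 74 negative values, and all treated libraries lay below all untreated ones for 16 members (background 11%). Without untreated replicate 1 or MMC replicate 1 of CLS-439 the median was -0.09, with 66 negative values.

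**Figure D3:**
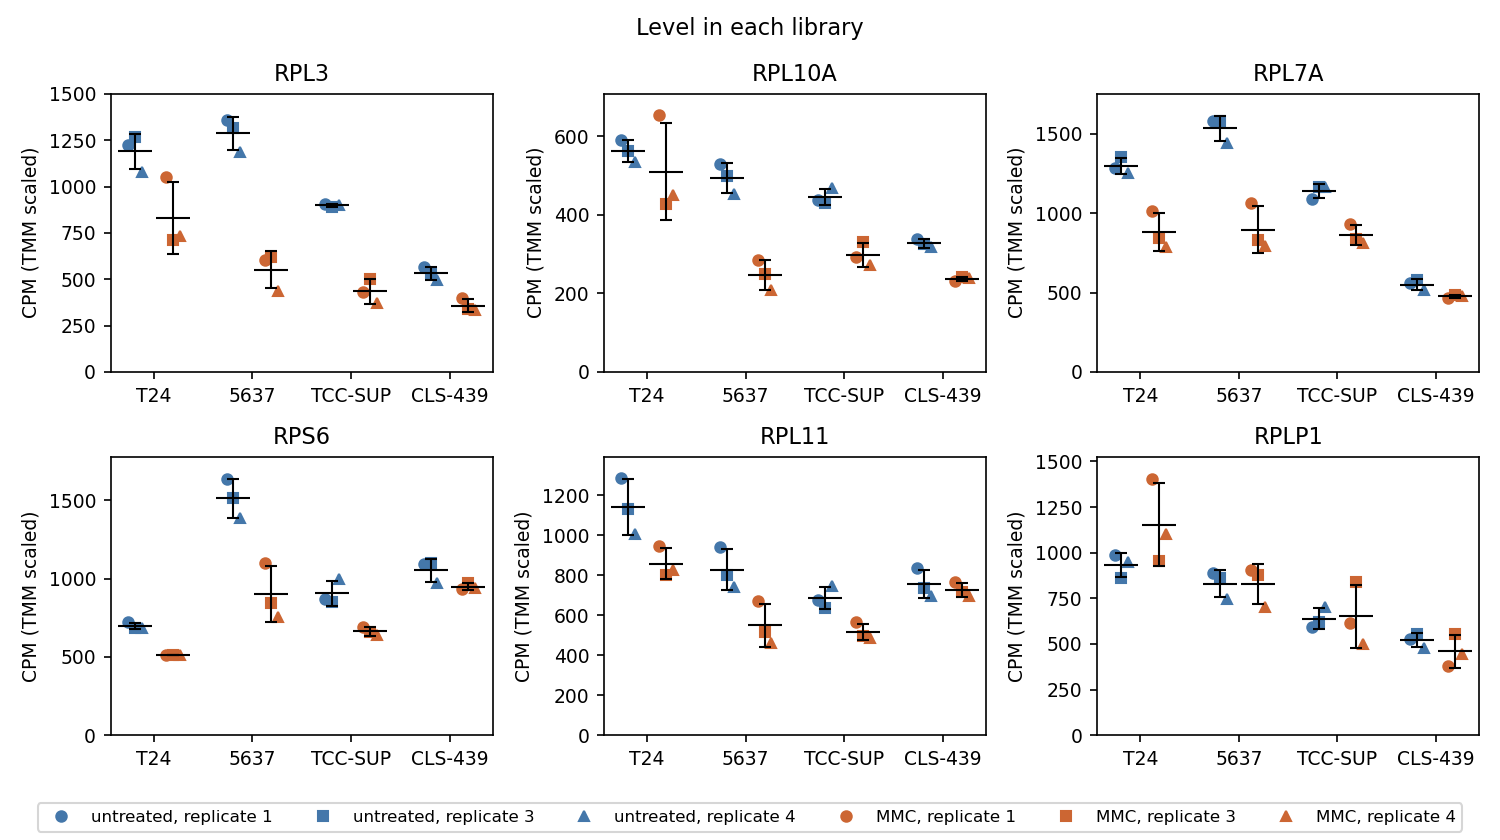
Level of 6 genes in each library as TMM-scaled CPM, with the mean and SD of 3 libraries per group; symbols give the replicate number. RPL3 is lower in every treated library of all 4 lines, while RPLP1 overlaps between untreated and treated libraries in each line.

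The calls overlapped between lines in part. RPL3, RPL7A, RPL11 and RPS6 were called lower in T24, 5637 and TCC-SUP, RPL6 and RPL7 in T24 and 5637, and RPL10A in 5637 and TCC-SUP. RPL36A was called in T24 alone and 33 genes in 5637 alone, which does not show that the lines differ for those genes. The remaining 35 genes were called in no line. Across the 77 genes the log2 fold changes of 5637 and TCC-SUP had a Pearson r of 0.77, those of T24 and 5637 0.71 and those of T24 and TCC-SUP 0.48. With CLS-439 r was 0.04 for T24, 0.35 for 5637 and 0.58 for TCC-SUP. The lines have separate controls, the 77 genes are not independent of each other, and the values describe these libraries.

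Tests of the difference between lines called few genes. RPL10A had a response 0.86 higher on the log2 scale in T24 than in 5637 (SE 0.19, adjusted p = 0.0111), the only member among the 77 called in that comparison, where 3.47% of all genes were called, 1.7% lower and 1.77% higher. In T24 its levels were 590.4, 563 and 535 CPM untreated and 653, 428 and 451 CPM treated, which overlap. The difference was positive for 76 of 77 genes, with a median of 0.31. Without MMC replicate 1 of T24 the median was 0.20, with 10 negative values. It was 0.19 without MMC replicate 4 of 5637, with 8 negative values, and 0.50 without MMC replicate 1 of 5637, with 1. Fitted without the other 2 lines no member was called for T24 against 5637 (RPL10A adjusted p = 0.0814, 0.85 on the log2 scale), and 15 were called without MMC replicate 1 of 5637. With MMC replicate 1 or 3 or untreated replicate 4 of T24 left out, 2 were called. RPL10A kept its call when any 1 library of T24 or 5637 was left out, at adjusted p values from 0.0021 to 0.0445.

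Between T24 and TCC-SUP, and between 5637 and TCC-SUP, edgeR and DESeq2 called 0 members, with 5 and 9 at an unadjusted p under 0.05. Without MMC replicate 1 of 5637 the second comparison called 5. Of all genes 3.79% were called in the first (1.38% lower, 2.42% higher) and 2.7% in the second (0.97% lower, 1.73% higher). The test of any difference among the 4 lines called RPL10A (adjusted p = 0.0185), RPL3 (adjusted p = 0.0353) and RPL6 (adjusted p = 0.0484), against 16% of all genes. The call count rose to 24 without MMC replicate 1 of 5637 and to 8 without MMC replicate 1 of T24. It dropped to 0 without MMC replicate 4 of 5637. It was 1 without untreated replicate 1 or 3 of 5637, and 1 without MMC replicate 1 or untreated replicate 3 or 4 of CLS-439.

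Of the 3 genes for the acidic stalk, which recruits translation factors to the ribosome, 1 was called in 5637, and differences between the 3 were not tested. RPLP0, the base of the stalk, had 2454, 2274 and 2141 CPM in untreated 5637 and 1919, 1837 and 1419 CPM after MMC, with no overlap (log2 fold change -0.41, SE 0.13, adjusted p = 0.0203). RPLP1 had 886, 861 and 746 CPM untreated and 907, 879.6 and 704 CPM treated in 5637, where the groups overlapped (adjusted p = 1). RPLP2 had 465, 473 and 427 CPM untreated and 522, 534 and 361 CPM treated (log2 fold change 0.05, SE 0.16, adjusted p = 0.878). In T24, TCC-SUP and CLS-439 none of the 3 genes passed the test.

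A list of 5 genes whose proteins are known to bind MDM2 was read: RPL5, RPL11, RPL23, RPL26 and RPS7. The list was chosen by hand, and other members may bind MDM2 too. All 5 were called lower in 5637, 1 each in T24 and TCC-SUP and 0 in CLS-439, RPL11 being the single call in T24 and TCC-SUP. In 5637 53.2% of the whole set and 13.6% of all genes were called lower. RPL5 had 1153, 1098 and 970.3 CPM untreated and 804, 698 and 570.3 CPM treated in 5637 (log2 fold change -0.64, SE 0.12, adjusted p = 0.000211). RPL11 (ENSG00000142676, chromosome 1, 23691742 to 23696835) had 941, 802 and 740.0 CPM untreated and 669.8, 518 and 461 CPM treated there (-0.59, SE 0.13, adjusted p = 0.00157). Both pairs of groups were separate in 5637. RPL11 in T24 had 1284, 1132 and 1006 CPM untreated and 946, 801 and 827 CPM treated (adjusted p = 0.0221), and in TCC-SUP 674, 636 and 747 CPM untreated and 565, 497 and 487 CPM treated (adjusted p = 0.0306). RPL23 fell in 5637 at -0.73 (SE 0.17, adjusted p = 0.00211), and RPL26 and RPS7 fell at -0.48 each, with overlapping libraries. RPL26 lost its call under 2 alternatives with all libraries of 5637 kept and 5 that left some out, and RPS7 under 3 and 6. Of 19 genes in which mutations are known to cause Diamond-Blackfan anaemia, a failure of red cell production, 10 were called lower in 5637 (52.6% of the list, 53.2% of the whole set) and 1 each in T24 and TCC-SUP.

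Coding length was set beside the fold changes. Among the 26 genes with the longest coding sequences (576 to 1281 bases) 21 were called lower in 5637 and the median log2 fold change was -0.54. The 25 genes of 405 to 564 bases had 12 calls and a median of -0.36, and the 26 of 75 to 405 bases had 8 calls and a median of -0.31. TCC-SUP gave 5, 1 and 0 calls and medians of -0.27, -0.16 and -0.14 in the same order, and T24 gave 5, 1 and 1 calls and medians of -0.12, -0.04 and -0.07. Spearman's rho between coding length and log2 fold change across the 77 genes was -0.46 in 5637, -0.42 in TCC-SUP, -0.26 in T24 and -0.17 in CLS-439. With annotated mRNA length in place of coding length, rho was -0.36, -0.39, -0.17 and -0.16. The long group had the lowest median of the 3 in every treated library but CLS-439 replicate 1. Other protein-coding genes of the same coding lengths were called lower in 5637 in 13.3%, 10.1% and 5.63% of cases from the long to the short group, and in 20.3%, 16.9% and 7.62% when taken at a mean of 100 CPM or more. Their higher calls were 21.5%, 21.9% and 18.6% in the same order, and 14.5%, 16.9% and 6.67% at 100 CPM or more. Their medians in 5637 showed no order by length, at 0.08, 0.09 and 0.07, and at -0.07, -0.09 and -0.08 at 100 CPM or more. In T24 16.3%, 14.0% and 10.9% of these other genes were called lower and 16.6% to 18.4% higher. At 100 CPM or more 24.2%, 26.9% and 21.9% were lower and 8.57% to 14.0% higher. The T24 members called lower (5 of 26, 1 of 25 and 1 of 26) were a smaller share in each group than these genes at 100 CPM or more. Against other genes at all levels their share was larger in the long group and smaller in the middle and short groups. In TCC-SUP 9.39%, 6.34% and 4.84% of the other genes were called lower and 8.25% to 13.1% higher. At 100 CPM or more 13.7%, 10.8% and 5.71% were lower and 5.71% to 12.5% higher. These correlations are across genes, which share libraries and are not independent, and the part of length in the response was not tested.

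**Figure D4:**
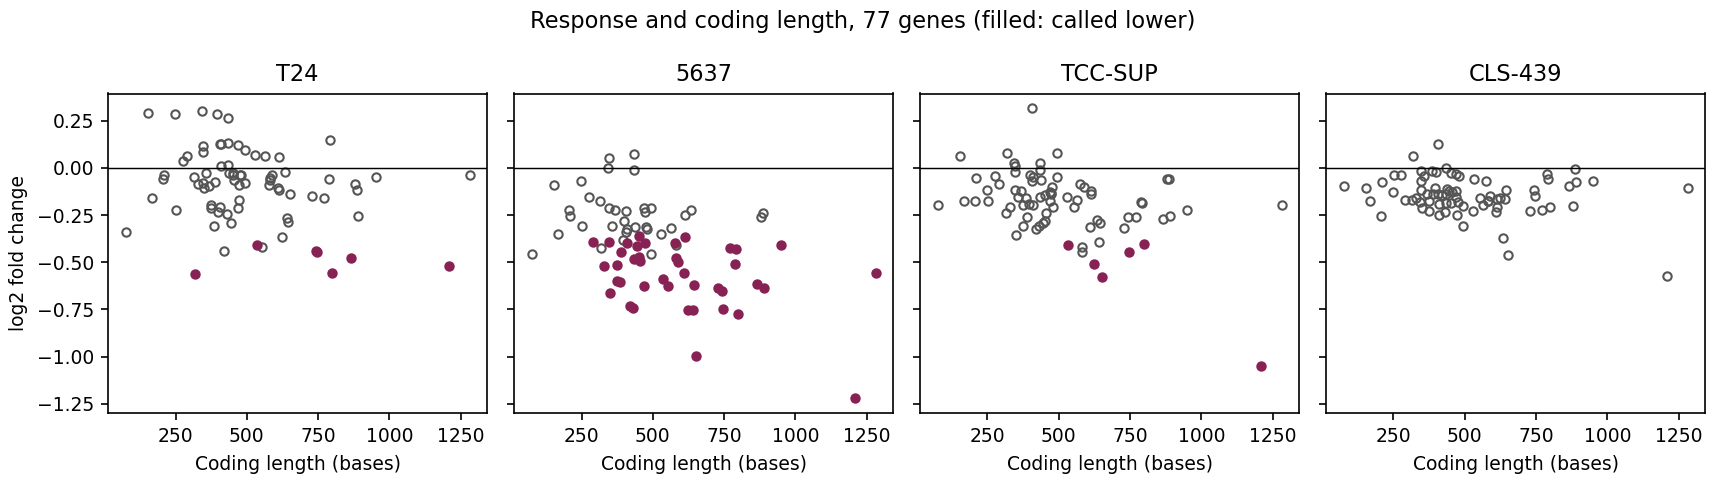
Log2 fold change of MMC against untreated cells by coding length in bases for the 77 genes, 1 panel per line; filled points are called lower. In 5637 21 of the 26 longest coding sequences are filled, and RPL3 lies lowest at the right of 3 panels.

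The TOP start was also set beside the calls in 5637. Of the 46 genes with a TOP start, 20 were called lower in 5637 and 26 were not. Of the 16 matched genes without one, 12 were called lower and 4 were not, RPL3, RPL10A, RPL4, RPL6 and RPS4X among the 12. These counts describe the annotated starts of the promoter table and carry no test.

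Other genes of the translation machinery moved as well. A list held 18 tested genes outside the set whose mRNAs are known for TOP starts. Of these 16 fell in 5637, 9 each in TCC-SUP and T24 and 0 in CLS-439, while 0 rose in any line. Their medians were -0.57, -0.32, -0.39 and -0.09 in 5637, T24, TCC-SUP and CLS-439. Of all genes 13.6%, 13.4%, 11.1% and 0.322% were called lower in the same order of lines, and 15.9%, 15.2%, 9.57% and 0.298% higher. HNRNPA1, an RNA-binding splicing factor, had 875, 1059.9 and 928 CPM untreated and 476, 312 and 351 CPM treated in 5637, with log2 fold changes of -1.33 in T24, -1.33 in 5637 and -0.89 in TCC-SUP (adjusted p = 1.34e-05, 1.12e-05 and 0.00162). NPM1, a nucleolar chaperone of ribosome assembly, had 2618, 2439 and 2187 CPM untreated and 1206, 918 and 908 CPM treated in 5637, and its log2 fold change was -1.15, -1.26 and -0.57 in the same lines (adjusted p = 4.39e-07, 1.2e-07 and 0.00233). EEF1A1, the factor that brings aminoacyl-tRNA to the ribosome, fell at -0.58, -0.86 and -0.51. No untreated and treated library overlapped for these 3 genes in T24, 5637 or TCC-SUP. RACK1, a scaffold protein on the small subunit, fell in 5637 at -0.70 (SE 0.15, adjusted p = 0.00102) and in TCC-SUP at -0.60 (SE 0.15, adjusted p = 0.00581). FAU, which encodes a ribosomal protein fused to a ubiquitin-like sequence and lies outside the symbol rule, passed the test in no line.

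Regulators of TOP mRNAs gave a mixed picture. Of 8 genes listed, 4 fell and 1 rose in 5637, 2 fell and 1 rose in TCC-SUP, 3 fell in T24 and 0 changed in CLS-439. LARP1 had 570.1, 527 and 563 CPM untreated and 348, 272 and 323 CPM treated in 5637 (log2 fold change -0.81, SE 0.12, adjusted p = 2.53e-05), and -0.39 (adjusted p = 0.0188) in T24 with overlapping libraries. RPTOR, the subunit that ties mTOR to its substrates in complex 1, had 54.0, 59.8 and 65.3 CPM untreated and 12.8, 5.19 and 6.08 CPM treated in TCC-SUP, and its log2 fold change was -1.63, -2.38 and -2.90 in T24, 5637 and TCC-SUP (adjusted p = 0.0295, 0.00255 and 0.00128). EIF4EBP2, a repressor of cap-dependent translation, rose in 5637 by 0.53 and in TCC-SUP by 0.45. Of 6 dedicated chaperones of ribosomal proteins, 3 fell and 1 rose in T24, 3 fell in 5637, 2 rose in TCC-SUP and 0 changed in CLS-439. HEATR3, which serves RPL5, fell at -1.02 in T24 and -0.96 in 5637, BCCIP and PDCD2 fell in the same lines, and TSR2, the partner of RPS26, rose in T24 and TCC-SUP. GRWD1, the partner of RPL3, rose in TCC-SUP by 0.46. Among 8 tested paralogs outside the set, RPL26L1 rose in T24 by 0.53 (SE 0.17, adjusted p = 0.0238), from 59.5, 61.2 and 59.2 CPM to 103, 74.1 and 82.8 CPM. In 5637 2 of the 8 fell, RPL7L1 at -0.41 among them, and 0 rose.

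Genes of the p53 response were read beside the MDM2 binders. Of 8 genes listed, 4 each rose in T24 and CLS-439, 3 in TCC-SUP and 2 in 5637, and 0 fell. The medians were 1.00 in T24, 1.22 in CLS-439 and 0.28 in both other lines. Of all genes 15.2% rose in T24, 0.298% in CLS-439, 9.57% in TCC-SUP and 15.9% in 5637. CDKN1A, the cell cycle inhibitor induced by p53, rose in all 4 lines, by 2.59, 1.27, 1.21 and 2.58 on the log2 scale. MDM2 itself rose by 1.53 in CLS-439 and had 0.38, 0.32 and 0.28 in T24, 5637 and TCC-SUP, where it did not pass the test. Its response differed among the 4 lines (adjusted p = 0.000438).

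Untreated levels spanned a wide range within the set. The median gene had a mean of 625, 667, 454 and 379 CPM in T24, 5637, TCC-SUP and CLS-439. Levels per kilobase used the median length of a gene's annotated principal mRNAs and were averaged over untreated T24, 5637 and TCC-SUP. RPS2 (1760 CPM per kilobase), RPS24 (1628) and RPL35 (1570.1) were highest. RPL36A (34.7), RPS10 (42.8) and RPL17 (47.0) were among the lowest. These 3 share 8.40%, 39.4% and 32.7% of their exon bases with other annotated genes on the same strand, where reads can go uncounted or be split. The annotated mRNA of RPL37 has 7686 bases for a coding sequence of 291, so its level per kilobase (134) rests on a long annotated end. The order of neighbours therefore depends on the annotation as well as on the spread of libraries.

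Untreated T24 and 5637 differed in 34 members, 13 lower and 21 higher in T24, a share below the 46.6% of all genes. RPL32, a large-subunit protein, showed the widest gap. It had 669, 669 and 596 CPM in T24, 3696, 3303 and 3141 CPM in 5637, 608, 581 and 649 CPM in TCC-SUP and 272, 309 and 263.8 CPM in CLS-439. Thus 5637 stood far above the other lines, at a log2 difference of -2.39 for T24 minus 5637 (SE 0.14, adjusted p = 1.71e-13) and 2.46 for 5637 minus TCC-SUP (SE 0.14, adjusted p = 7.22e-14). RPL32 was among the genes that did not pass the test after MMC in 5637, at 3263, 2772 and 2633 CPM. RPS6 (-1.11), RPS28 (-1.09) and RPS12 (-1.03) were also lower in T24 than in 5637. RPS25, which is needed for translation from some viral internal entry sites, was higher, with 841, 789 and 731 CPM in T24 against 414, 324 and 283 CPM in 5637 (log2 difference 1.21, SE 0.16, adjusted p = 8.16e-07). RPL17 (1.06), RPL13 (0.95) and RPS15A (0.88) followed.

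TCC-SUP had lower levels than T24 and 5637. T24 was higher in 50 members and lower in 2 (all genes 22.9% and 28.4%, 51.3% together), and 5637 was higher in 47 and lower in 6 (all genes 27.1% and 29.5%), with medians of 0.48 in both comparisons, each of which uses the same TCC-SUP libraries. RPL36A (1.40), RPL17 (1.28), RPL10 (1.16) and RPS3 (0.98) led T24 over TCC-SUP, and RPL37 (-0.75) and RPS6 (-0.37) were the 2 lower genes. RPL37 had 868, 820.4 and 684 CPM in T24, 1057, 984 and 870.3 CPM in 5637 and 1367, 1249.6 and 1386 CPM in TCC-SUP, so that it ran against the set. For 5637 over TCC-SUP RPL32, RPS12 (1.44), RPL34 (1.32) and RPL31 (1.28) led, and RPS10 (-0.91), RPS15A (-0.66), RPS25 (-0.49) and RPL37 (-0.46) were lowest.

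Untreated CLS-439 was lower than the mean of the other untreated lines in 52 members and higher in 3, RPS12 (0.60), RPL34 (0.48) and RPS19 (0.38), where 34.2% and 40.4% of all genes were lower and higher. RPS2, a small-subunit protein near the mRNA entry, had 84.3, 75.9 and 72.9 CPM in CLS-439 against means of 2174, 1402 and 1624 CPM in T24, 5637 and TCC-SUP (log2 difference -4.45, SE 0.18, adjusted p = 4.05e-17). RPL17 followed at -2.52, and RPL29 and RPS25 at -2.43. The median over the set was -0.63 (all genes 0.03), and scaled by library totals alone it was -0.35 (all genes 0.31). Reads in pseudogenes moved with this difference, and how well CLS-439 RNA fits the human reference was not tested. All annotated pseudogenes together took 3.15% to 3.43% of reads in CLS-439 libraries and 0.409% to 0.552% in libraries of the other lines. Differences in counted reads between CLS-439 and the other lines can therefore not be read as differences in expression alone. Named ribosomal protein pseudogenes, 1132 in the annotation, held 18.1 to 19.4 reads per 100 reads of the set in CLS-439 and 1.27 to 2.10 in libraries of the other lines. For RPS2 83.9% of the reads of gene and pseudogenes lay in pseudogenes in CLS-439 and 13.4% in T24. The share was 76.6% for RPL39, 72.7% for RPL17 and 71.8% for RPS15A.

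In CLS-439 28 members had at least 20% of their reads in pseudogenes, and 0 did in any other line, where the highest share was 16.5%. Their median log2 difference from the other lines was -1.20, and that of the other 49 members was -0.38. Summing each gene with its named pseudogenes moved the median over all 77 members from -0.63 to -0.33 and left 50 called members, 40 of them lower. RPS2 then stood at -2.04, RPL17 at -0.63 and RPL39 at -0.18 (adjusted p = 0.254), and RPS15A changed sign to 0.54 (adjusted p = 0.000487). RPS25, with no pseudogene reads in CLS-439, stayed at -2.41 and RPL29 at -2.27.

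**Figure D5:**
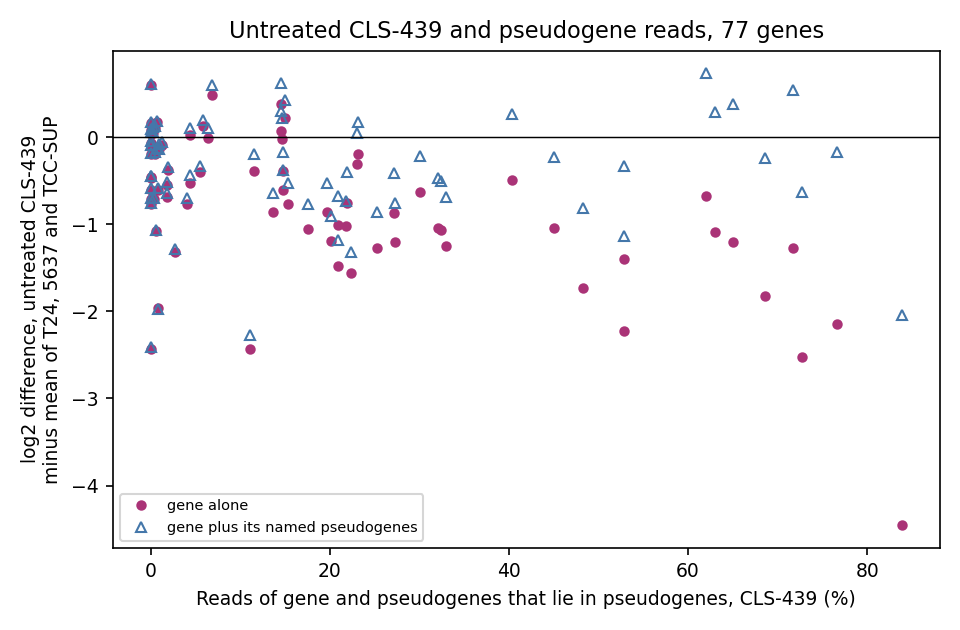
Log2 difference of untreated CLS-439 from the mean of the other untreated lines (y axis) by the percent of a gene's reads that lie in its named pseudogenes in CLS-439 (x axis), for 77 genes counted alone (filled) and with their pseudogenes (open). RPS2 moves from -4.45 to -2.04, whereas RPS25 (-2.43 and -2.41) and RPL29 (-2.43 and -2.27) stay low.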

How the data were processed

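Read counts of 24 libraries were deposited by the authors as 1 unnormalized table of Ensembl genes. Per the submitters' processing notes the build was GRCh38, with featureCounts 1.6.2 and STAR 2.5.3a as tools. How strand, overlapping genes and reads mapping to several places were handled is not given in the sources used here. Counts shared with pseudogenes or readthrough genes are therefore uncertain. Symbols, coordinates and lengths came from GENCODE 29, which holds 58216 of the 58381 identifiers. A gene's length was the median over its best-ranked principal mRNAs, of which RPL3 had 1 and RPL15 had 7.

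Groups were taken from the line and treatment labels. The treatment tag MCC was read as MMC, the only drug the protocol names. Counts were tested with edgeR 4.0.16 (R 4.3.3): filterByExpr, TMM, robust quasi-likelihood fit over all 24 libraries with 1 mean per group (16 residual degrees of freedom, common dispersion 0.0317), Benjamini-Hochberg over 20820 genes, calls at an adjusted p under 0.05. Tested genes held 99.9% of the reads. The test was checked on simulated counts with planted changes. These counts were drawn independently, so the check does not cover shifts that many genes of 1 library share. DESeq2 1.42.0, other scalings, no filter, fits of fewer libraries, replicate blocks and sums with pseudogenes were the alternatives.

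The members and gene lists were chosen with earlier results of these data known. Any member could be named, and values per library were given for the strongest calls of each comparison, the ends of the order of levels per kilobase, and the stalk and MDM2-binding lists. Some genes are not reported here by name. Correlations and list medians are descriptions without a test.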

Additional observations from a re-analysis of the deposited data

Results flagged for a closer look

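RPL10A was picked out because its response to MMC differed between lines by a test of the difference itself. The response was 0.86 higher on the log2 scale in T24 than in 5637 (SE 0.19, adjusted p = 0.0111 by edgeR). Over all alternatives run its adjusted p was lowest at 0.00063, with DESeq2, and highest at 0.307, without replicate 4 of all groups. In treated T24 libraries it had 653, 428 and 451 CPM, and replicate 1 lay above every untreated library of that line, while all treated libraries of 5637 lay below all untreated ones. The test of any difference among the 4 lines also called RPL10A (adjusted p = 0.0185), RPL3 (adjusted p = 0.0353) and RPL6 (adjusted p = 0.0484). RPL10A lost this call without MMC replicate 4 of 5637 (adjusted p = 0.0559) and without replicate 3 (0.154) or 4 (0.39) of all groups, and was lowest at 0.00186 with DESeq2. RPL6 lost this call with library totals (0.0937), upper quartile scaling (0.0628) and no filter (0.224). When single libraries were left out it kept the call only without MMC replicate 1 of T24 (adjusted p = 0.0483) or of 5637 (adjusted p = 0.0105). RPL3 lost it without untreated replicate 4 of T24, untreated replicate 1 or 3 or MMC replicate 4 of 5637, or MMC replicate 1 or untreated replicate 3 or 4 of CLS-439, at adjusted p values of 0.0567 to 0.0699. Without replicate 4 of all groups the adjusted p was 0.451 for RPL3 and 0.582 for RPL6, the highest of the alternatives. The lowest were 0.00409 for RPL3, with no filter, and 0.00342 for RPL6, with DESeq2. RPL3 had log2 fold changes of -0.52, -1.22, -1.05 and -0.57 in T24, 5637, TCC-SUP and CLS-439, and RPL6 had -0.48, -0.62, -0.27 and -0.10. All these values were negative, but RPL3 in CLS-439 and RPL6 in TCC-SUP and CLS-439 were not called.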

How the results depend on the processing

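No member called after MMC changed direction under any alternative. Under every alternative 10 of the 41 calls in 5637 held (RPL3, RPL4, RPL5, RPL6, RPL7A, RPL10A, RPL14, RPL19 and RPS6 among them), 2 of 7 in T24 (RPL6 and RPL7A) and 1 of 6 in TCC-SUP (RPL3). With library totals in place of TMM, members called were 25 lower in 5637 and 3 higher in T24 (RPLP1, RPS12 and RPS19). All genes then split into 2107 lower and 3954 higher in T24 (2785 and 3162 with TMM), 2045 and 4436 in 5637 (2823 and 3305) and 1724 and 3088 in TCC-SUP (2313 and 1993). Fits of the compared lines alone called 25 lower in 5637, 2 lower in CLS-439 (RPL3 and RPL10A) and 0 for T24 against 5637. DESeq2 called 1 lower in CLS-439 (RPL3, as in each setting with 1 call there), 5 for T24 against 5637 and 11 for any difference, and leaving out the filter called 1 lower in CLS-439 and 3 for T24 against 5637. The cause of these shifts was not tested.

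The replicate numbers were not taken as pairs, since in no line did all 3 same-numbered pairs of libraries correlate above 0.1, although each library of 5637 and CLS-439 correlated best with its own number, a hint from the data and not from the design. With the replicate number as a block within lines, members called lower were 13 in T24, 12 in TCC-SUP and 1 in CLS-439, with 3 for T24 against 5637 and 8 for any difference. With the replicate block common to all lines the counts were 10 in TCC-SUP, 1 in CLS-439, 3 and 7.

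Leaving out single libraries, or 1 replicate number of all groups, gave 2 to 18 members lower in T24, 10 to 58 in 5637, 1 to 16 in TCC-SUP and 0 to 1 in CLS-439. The range was 0 to 15 for T24 against 5637, 0 to 5 for 5637 against TCC-SUP and 0 to 24 for any difference. Untreated comparisons gave 20 to 35 for T24 against 5637, 28 to 49 for T24 against TCC-SUP, 35 to 53 for 5637 against TCC-SUP and 53 to 58 for CLS-439.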
